A study of Mus musculus with 12 samples.

Results

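The interferon regulatory factors are a family of transcription factors that share a DNA-binding domain and control interferon and interferon-stimulated genes. The 8 members described here, Irf1, Irf2, Irf3, Irf4, Irf5, Irf7, Irf8 and Irf9, were taken by gene symbol from a table of 12441 genes, and all 8 were found. The RNA came from mouse bone marrow-derived macrophages, cultured for 6 days with 10% L929-conditioned medium, a source of macrophage colony-stimulating factor. The design has 4 groups of 3 libraries: wild type (WT) without stimulation, cells homozygous for D316Y in COQ6 without stimulation, and both genotypes after 24 h with 100 ng/mL lipopolysaccharide (LPS). COQ6 is a mitochondrial monooxygenase of coenzyme Q synthesis, and D316Y is a substitution in it. LPS is a bacterial cell wall lipid that macrophages sense through Toll-like receptor 4.

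In the pathway, Toll-like receptors and cytosolic nucleic acid sensors activate the kinases TBK1 and IKKε, which phosphorylate IRF3 and IRF7, and these switch on interferon genes. Secreted interferon acts through its receptor on STAT2, which joins IRF9 in a complex (ISGF3) that binds interferon-stimulated response elements, among them those of Irf7 itself. IRF1 and IRF2 bind similar sites with opposite effects, IRF5 drives inflammatory cytokine genes downstream of MyD88, IRF8 sets myeloid identity together with PU.1, and IRF4 is linked to alternative activation of macrophages and to lymphoid and dendritic cells.

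Library depth ran from 32.8 to 47.2 M reads. All 8 macrophage markers, among them Adgre1, Csf1r, Cd68 and Lyz2, lay above 0 log2 CPM in every group. CPM here are reads scaled to a size for each library, which was not its sum of reads. Of the B cell markers, Cd79a, Ms4a1 and Pax5 were not listed in the table used here, while Cd79b had group means of 2.17 to 3.02 log2 CPM and rose with LPS by 0.75 in WT and 0.72 in D316Y. Of the T cell markers, Cd3e, Cd3d and Cd3g were not listed, while Cd4 had group means of 1.19 to 2.86 log2 CPM and fell with LPS by 1.49 and 1.42. The unstimulated replicate 1 libraries stood apart: mitochondrially encoded genes took 0.449% of the reads in WT replicate 1 and 0.949% in D316Y replicate 1, against 1.97% to 2.97% in the other unstimulated libraries and 0.658% to 1.10% with LPS. The labels do not state whether replicates are separate animals or cultures, and the p-values therefore cover only the spread between the samples at hand.

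LPS moved 4 of the 8 genes in WT macrophages and 3 of the 8 in D316Y macrophages. Irf7 and Irf1 rose and Irf4 fell in both genotypes, and Irf5 fell in WT. These calls use the library sizes in the deposited values, which differ from the sums of reads in opposite directions without and with LPS. Compared with scaling to those sums, which was not tested, these sizes raise every LPS change. The rise of Irf1 in WT and the lack of a call for Irf2, Irf3, Irf8 and Irf9 depend on them. Here and below, a gene passed when its adjusted p in limma's moderated test was under 0.05 with Benjamini-Hochberg adjustment over all genes tested. The 4 calls in WT stand beside 18.1% of 11663 genes that passed as higher and 19.0% that passed as lower. In D316Y the 3 calls stand beside 19.4% of 11795 genes higher and 19.0% lower. The share of all genes whose LPS and unstimulated libraries do not overlap was not counted, so such separation is given below as description only. The genotype made no called difference to a member: 0 of 8 passed without LPS and 0 of 7 tested with LPS.

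**Figure D1:**
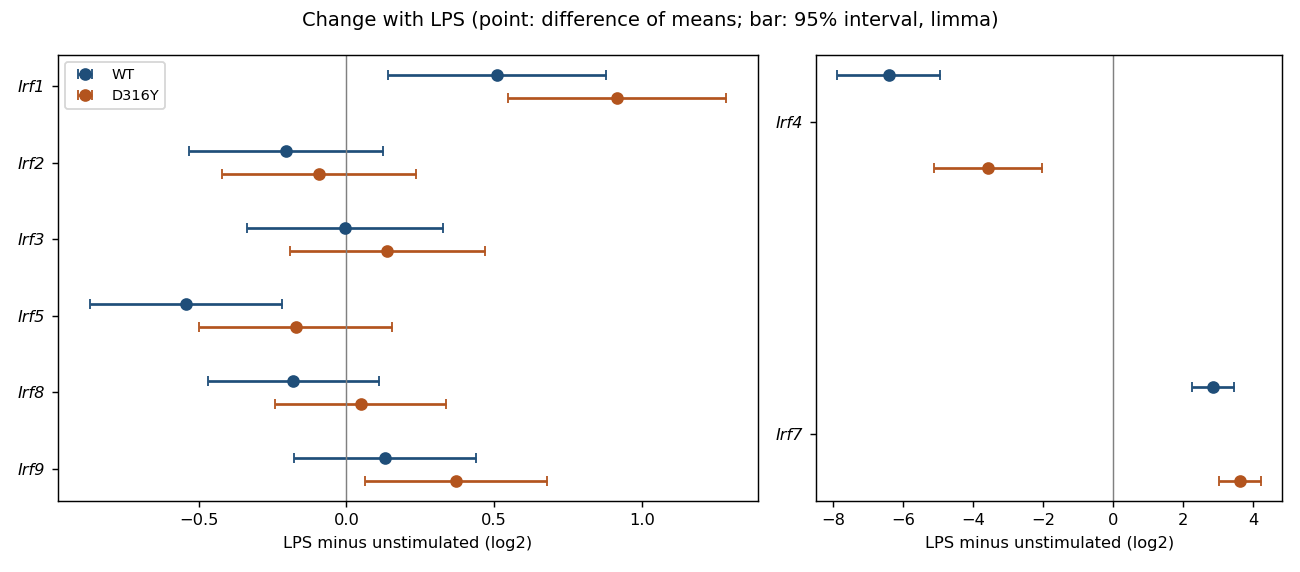
Difference between LPS and unstimulated libraries (log2 scale, horizontal axis) for each member in WT and in D316Y, with points for differences of means over 3 libraries a group and bars for 95% limma intervals; Irf4 and Irf7 have a panel of their own with a wider axis. Irf7 stands at 2.85 in WT and 3.63 in D316Y, Irf4 at -6.42 and -3.58, and the other 6 members lie between -0.54 and 0.92.

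Irf7 (ENSMUSG00000025498, chr7:141262706-141266481, minus strand, GRCm38) encodes the factor that amplifies type I interferon production. In resting WT replicates 1, 2 and 3 it stood at 9.47, 8.61 and 8.59 log2 CPM, and in resting D316Y at 8.20, 7.71 and 8.76. With LPS the values were 11.61, 11.77 and 11.85 in WT and 11.95, 12.01 and 11.59 in D316Y. Every LPS library lay more than 2 log2 units above every unstimulated library, while the genotypes overlapped in both conditions. Irf7 rose 7.22-fold in WT (2.85 on the log2 scale, SE 0.28, limma adjusted p 3.63e-06) and 12.4-fold in D316Y (3.63, SE 0.28, limma adjusted p 3.36e-07). The depth was high, from 11589 reads in resting D316Y replicate 2 to 156402 in LPS-treated D316Y replicate 2.

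Irf3 (ENSMUSG00000003184, chr7:44997648-45002848, plus strand), the partner that is already present before stimulation and is switched on by phosphorylation, showed no called change. It measured 4.81, 4.42 and 4.78 log2 CPM in resting WT, 4.51, 4.52 and 4.76 in resting D316Y, 4.46, 4.84 and 4.71 in LPS-treated WT, and 4.68, 4.91 and 4.61 in LPS-treated D316Y. All 4 groups overlapped. The difference with LPS was -0.005 in WT (95% interval -0.34 to 0.33) and 0.14 in D316Y (-0.19 to 0.47), on the log2 scale.

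Irf9 (ENSMUSG00000002325, chr14:55603571-55610030, plus strand), the DNA-binding subunit of ISGF3, changed little. Its level was 6.62, 6.14 and 6.21 log2 CPM in resting WT and 6.37, 6.03 and 6.17 in resting D316Y. With LPS it was 6.43, 6.47 and 6.46 in WT and 6.51, 6.64 and 6.53 in D316Y. In D316Y the LPS libraries all lay above the unstimulated ones, without a share of all genes to set beside it. In WT, unstimulated replicate 1 lay above all LPS libraries. The change with LPS was 0.13 in WT (SE 0.14, limma adjusted p 0.509) and 0.37 in D316Y (SE 0.14, limma adjusted p 0.0551), and neither passed. Without both unstimulated replicate 1 libraries it was 0.28 in WT (limma adjusted p 0.0486) and 0.46 in D316Y (limma adjusted p 0.00304), which put both past the threshold. In D316Y it also passed without D316Y replicate 1 alone (limma adjusted p 0.0276) and with each library centred on its median (0.43, limma adjusted p 0.0356).

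Irf1 (ENSMUSG00000018899, chr11:53770014-53778374, plus strand) encodes an activator of antigen presentation, guanylate-binding protein and nitric oxide synthase genes. Unstimulated WT gave 7.04, 6.50 and 6.55 log2 CPM and resting D316Y 6.36, 6.10 and 6.48. After LPS, WT gave 7.08, 7.20 and 7.34 and D316Y 7.28, 7.40 and 7.01. All LPS libraries of a genotype lay above its unstimulated ones, in WT by a narrow margin because of unstimulated replicate 1. Irf1 rose by 0.92 in D316Y (1.89-fold, SE 0.17, limma adjusted p 0.000794) and by 0.51 in WT (1.42-fold, SE 0.17, limma adjusted p 0.0318). The WT call rested on single libraries: the limma adjusted p was 0.117 and 0.113 without resting WT replicates 2 and 3, 0.0685 and 0.114 without LPS replicates 2 and 3, and 0.0635 with only the 6 WT libraries in the fit.

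Irf2 (ENSMUSG00000031627, chr8:46739732-46847458, plus strand), the factor that competes with IRF1 for its sites, overlapped between all 4 groups. The libraries gave 6.72, 6.41 and 6.44 log2 CPM in resting WT, 6.67, 6.35 and 6.30 in resting D316Y, 6.51, 6.08 and 6.37 in LPS-treated WT and 6.40, 6.42 and 6.22 in LPS-treated D316Y. Replicate 1 was the highest in 3 of the 4 groups. The LPS difference was -0.20 in WT (95% interval -0.53 to 0.12) and -0.09 in D316Y (-0.42 to 0.24), and neither passed.

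Irf5 (ENSMUSG00000029771, chr6:29526625-29541871, plus strand) had one of the highest levels per kb of exon among the members before stimulation. It stood at 8.59, 8.28 and 8.32 log2 CPM in resting WT and at 7.74, 7.82 and 7.996 in LPS-treated WT, so the WT groups did not overlap. In D316Y the values were 8.26, 8.04 and 8.19 without and 8.05, 8.16 and 7.76 with LPS, and these overlapped. Irf5 fell 1.46-fold in WT (-0.54 on the log2 scale, SE 0.15, limma adjusted p 0.0123) and stood at -0.17 in D316Y (SE 0.15, limma adjusted p 0.403). The difference between these 2 responses was itself 0.37 (SE 0.21, limma adjusted p 0.999), so the responses were not shown to differ.

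Irf8 (ENSMUSG00000041515, chr8:120736358-120756694, plus strand), a factor that macrophage progenitors need, held a narrow range of 7.65 to 8.20 log2 CPM over the 12 libraries. Unstimulated WT gave 8.20, 7.84 and 7.96 and resting D316Y 7.73, 7.66 and 7.82. With LPS, WT gave 7.79, 7.80 and 7.87 and D316Y 7.85, 7.86 and 7.65. The largest value belonged to resting WT replicate 1. LPS differences were -0.18 in WT (95% interval -0.47 to 0.11) and 0.05 in D316Y (-0.24 to 0.34), and neither passed.

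Irf4 (ENSMUSG00000021356, chr13:30749226-30766976, plus strand) was the scarcest member. Its change with LPS was the largest of the 8 in WT, while in D316Y it was close in size to that of Irf7. Its counts were 112, 83 and 67 reads in resting WT and 107, 88 and 54 in resting D316Y. LPS left 2, 0 and 0 reads in the WT libraries and 4, 2 and 8 in those of D316Y, so every LPS library lay far under every unstimulated one. Scaled by the library sizes in the deposited values, the summed reads were 111-fold lower with LPS in WT (95% counting interval 30.4 to 921). In D316Y they were 12.1-fold lower (7.10 to 22.5). These intervals cover counting error only. The fitted changes, -6.42 in WT (SE 0.68, limma adjusted p 8.12e-06) and -3.58 in D316Y (SE 0.71, limma adjusted p 0.00126), depend on the 0.5 reads added before the logarithm and were -4.89 and -3.17 with 2 reads added. Fewer cells of a type and less RNA per cell cannot be told apart in such bulk samples. Of the 6 dendritic cell markers 3 were listed, and they moved in different directions with LPS: Ccr7 from -0.12 to 3.79 log2 CPM in WT and from 0.80 to 4.26 in D316Y, Xcr1 from -0.45 to 0.96 and from -0.81 to 0.84, and Cd209a from 0.56 to -5.41 and from 0.02 to -6.15. Their summed level ran from 1.57 to 1.81 log2 CPM in resting WT, 1.49 to 2.09 in resting D316Y, 3.75 to 4.12 in LPS-treated WT and 4.35 to 4.43 in LPS-treated D316Y. Of the plasmacytoid dendritic cell markers, 4 of 5 were listed. Bst2 went from 8.56 to 10.33 in WT and 7.995 to 10.31 in D316Y, and Tcf4 from 6.64 to 6.16 and 6.52 to 6.10. Siglech went from -0.21 to -0.175 and 0.23 to -0.62, and Ccr9 from -1.17 to -0.06 and 0.06 to 0.50. The 4 summed to 8.16 to 9.24 log2 CPM in the resting libraries and 10.19 to 10.57 with LPS. That sum mostly follows Bst2, which is also counted below among the targets of interferon-stimulated response elements. The 4 monocyte and progenitor markers summed to 6.12 to 6.51 at rest and 7.44 to 7.90 with LPS. Among these, Ly6c2 went from 0.37 to 7.61 in WT and -0.11 to 7.47 in D316Y, while Ccr2 went from 6.06 to 4.35 and 6.31 to 4.59, Cd34 from 0.66 to -4.59 and 0.90 to -5.62, and Kit from 0.54 to -0.95 and -0.69 to -0.96. The part of these markers in the change of Irf4 was not tested.

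**Figure D2:**
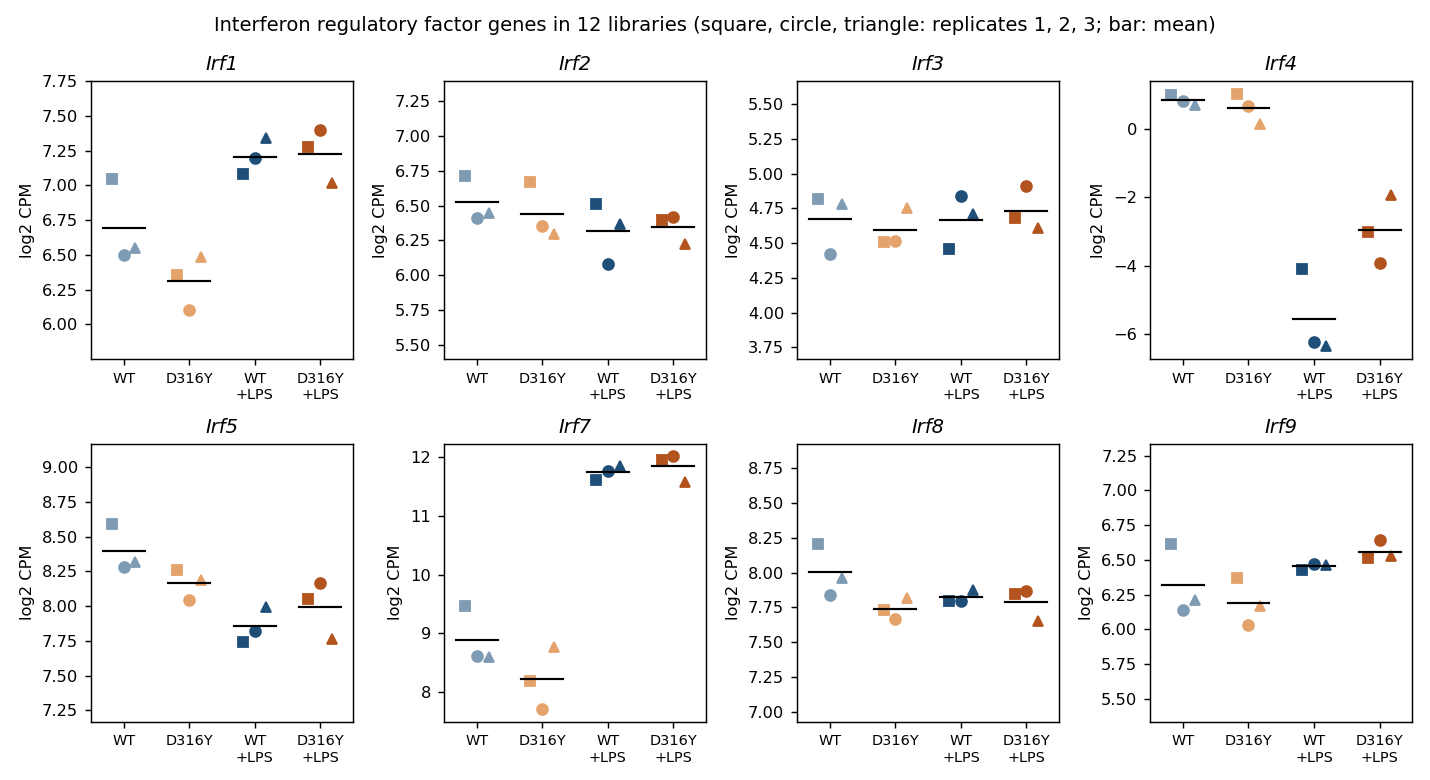
Level of each member (log2 CPM, vertical axis) in the 12 libraries by group, with squares, circles and triangles for replicates 1, 2 and 3 and a bar for the group mean; each panel has its own axis. Irf7 lies at 11.59 or above in all 6 LPS libraries and at 9.47 or lower without LPS, Irf4 lies at -1.94 or lower in all 6 LPS libraries, and resting WT replicate 1 is the highest WT library without LPS for all 8 genes.

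The promoter sequences of the 3 genes that moved in both genotypes, and of Irf2 and Irf8, which did not pass, are shown so that motif matches can be set beside the response. They are RefSeq sequences of build GRCm38.p6, printed from up to 250 bases before the annotated start, 5′ to 3′ on the gene's strand, without bases inside the gene as GENCODE or RefSeq draws it. Capitals mark matches to an interferon-stimulated response element (GAAANNGAAA) or a gamma-activated sequence (TTCNNNGAA), the site of STAT dimers.
Irf7, chr7:141266500-141266674, minus strand: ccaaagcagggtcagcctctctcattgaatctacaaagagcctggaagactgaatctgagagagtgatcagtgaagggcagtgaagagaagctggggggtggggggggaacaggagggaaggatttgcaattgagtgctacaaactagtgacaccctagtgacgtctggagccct
Irf1, chr11:53769764-53770013, plus strand: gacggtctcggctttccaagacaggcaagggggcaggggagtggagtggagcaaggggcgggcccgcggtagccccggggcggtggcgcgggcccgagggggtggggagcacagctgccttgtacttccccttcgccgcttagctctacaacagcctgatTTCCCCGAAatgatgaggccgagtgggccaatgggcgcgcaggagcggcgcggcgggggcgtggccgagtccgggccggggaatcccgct
Irf4, chr13:30748983-30749225, plus strand: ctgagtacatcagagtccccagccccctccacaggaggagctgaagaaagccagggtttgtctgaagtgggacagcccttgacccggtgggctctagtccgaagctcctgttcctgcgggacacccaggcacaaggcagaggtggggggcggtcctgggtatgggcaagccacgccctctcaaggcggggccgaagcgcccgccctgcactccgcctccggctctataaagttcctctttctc
Irf2, chr8:46739495-46739731, plus strand: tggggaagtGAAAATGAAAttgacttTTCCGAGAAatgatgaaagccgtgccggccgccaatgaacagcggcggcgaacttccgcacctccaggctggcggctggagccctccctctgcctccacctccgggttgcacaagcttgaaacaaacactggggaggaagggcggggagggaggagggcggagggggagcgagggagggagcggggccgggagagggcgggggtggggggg
Irf8, chr8:120736108-120736357, plus strand: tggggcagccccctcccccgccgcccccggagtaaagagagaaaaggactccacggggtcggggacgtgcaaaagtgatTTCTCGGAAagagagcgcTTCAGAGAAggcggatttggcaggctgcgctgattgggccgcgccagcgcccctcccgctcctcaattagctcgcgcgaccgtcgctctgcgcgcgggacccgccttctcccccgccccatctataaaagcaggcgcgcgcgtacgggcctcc

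Motifs were searched on both strands in the 250 bases before each start, in 11 windows that the table holds for the 8 members. GAAANNGAAA was found in 1 member, Irf2 (GAAAATGAAA, -241 to -232, counted from the start). Over all genes it was found in 3.46% of 27025 genes and 2.98% of their 32851 windows. TTCNNNGAA was found in 3 members, against 8.13% of all genes and 7.02% of all windows. It lay in Irf1 (TTCCCCGAA, -90 to -82), in Irf2 (TTCCGAGAA, -224 to -216) and at 2 places in Irf8 (TTCTCGGAA and TTCAGAGAA). GGAANNGAAA, an ETS core beside an interferon core such as PU.1 and IRF8 bind together, was found in Irf2, where it overlaps the response element. It was found in 2.68% of all genes and 2.30% of all windows. A loose κB form, GGGNNNNNCC, was found in 8 of 8 members, against 48.65% of all genes. It was found in 8 of the 11 windows, against 45.8% of all windows. The Irf7 and Irf4 windows hold neither GAAANNGAAA nor TTCNNNGAA, which says only that these letters are not in this stretch. Irf1 rose and Irf2 and Irf8 did not pass, though all 3 hold TTCNNNGAA.

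Levels of different members were compared per kb of exon, with the exons of all annotated transcripts of a gene joined. For Irf7 the 3776 bases so joined cover the whole span of the gene. The order and the places below depend on these lengths. In resting WT the order of mean log2 CPM per kb was Irf7 (6.97), Irf5 (6.86), Irf8 (5.18), Irf1 (4.71), Irf9 (3.89), Irf2 (3.64), Irf3 (2.89) and Irf4 (-1.45). Irf7 and Irf5 overlapped between libraries, as did Irf8 and Irf1, and Irf9 and Irf2. In resting D316Y, Irf5 (6.63) stood before Irf7 (6.31), again with overlap, and the other positions were the same. With LPS, Irf7 led by a wide gap, at 9.83 in WT and 9.93 in D316Y, followed by Irf5 at 6.32 and 6.45. Among all 12441 genes ranked on this scale, Irf7 went from place 387 to 65 in WT and from 584 to 59 in D316Y. Irf4 went from place 10921 to 12409 in WT and from 11239 to 12303 in D316Y. Irf1 (5.22 and 5.24) then came before Irf8 (5.002 and 4.97), in D316Y with overlap.

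Without LPS, the 8 members had negative differences between D316Y and WT, and none passed. Their median was -0.23 on the log2 scale, beside -0.02 over the 11525 genes tested, of which 53.8% were negative. The genes that passed made up 0% as higher and 0.00868% (1 gene) as lower, and 0 members had an unadjusted p under 0.05, against 337 genes. Irf7 had the largest difference, -0.67 (SE 0.34, 95% interval -1.44 to 0.10, limma adjusted p 0.942), then Irf1 at -0.38 (SE 0.20, -0.84 to 0.08), Irf8 at -0.26, Irf5 at -0.23 and Irf4 at -0.22. The others were Irf9 at -0.13, Irf2 at -0.08 and Irf3 at -0.08, with limma adjusted p from 0.942 to 0.953 over the 8.

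The libraries of Irf1, Irf5 and Irf8 did not overlap, with all 3 D316Y libraries lower. This was true of 5.18% of all genes tested as lower and of 2.95% as higher. Across genes, the deviations of same-numbered unstimulated libraries from their group means correlated at 0.656, 0.630 and 0.200, so differences within numbers are also given. Number 3 did not correlate best with its own number, and the labels do not state a pairing. For Irf7 they were -1.28, -0.90 and 0.17 in replicates 1, 2 and 3, so D316Y was lower in 2 of 3 pairs. For Irf1 they were -0.69, -0.39 and -0.07, for Irf8 -0.47, -0.17 and -0.15, and for Irf5 -0.33, -0.24 and -0.13. D316Y was thus lower in 3 of 3 pairs for these genes, most in replicate 1. Any pairing gives 3 of 3 where the groups do not overlap, so this adds nothing to the lack of overlap. Irf9 (-0.25, -0.11 and -0.04) and Irf2 (-0.05, -0.05 and -0.15) were also lower in 3 of 3 pairs, Irf2 most in replicate 3. Irf3 (-0.30, 0.09 and -0.03) and Irf4 (0.03, -0.14 and -0.55) were lower in 2 of 3. With the replicate number as a block, 6 genes passed in place of 1, and 0 members, whose limma adjusted p then ran from 0.181 (Irf1) to 0.739 (Irf3).

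Values of the libraries moved with this comparison. Without both replicate 1 libraries the difference was -0.36 for Irf7, -0.23 for Irf1, -0.16 for Irf8, -0.18 for Irf5 and 0.03 for Irf3, which thereby changed sign. Without WT replicate 1 alone it was -0.38 for Irf7, -0.21 for Irf1 and 0.01 for Irf2 and for Irf9. Of the 8 macrophage markers, 8 were also lower in D316Y (0 passed, median -0.22). Their summed level was 15.10 to 15.26 log2 CPM in WT and 14.99 to 15.11 in D316Y, most of it from Lyz2 (means 14.81 and 14.75). The 5 neutrophil markers listed of 9 summed to 2.81 to 4.21 in WT and 3.78 to 4.90 in D316Y, with S100a8 the highest (means 2.47 and 3.65). The part of these markers and of the mitochondrial share in the differences was not tested.

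**Figure D3:**
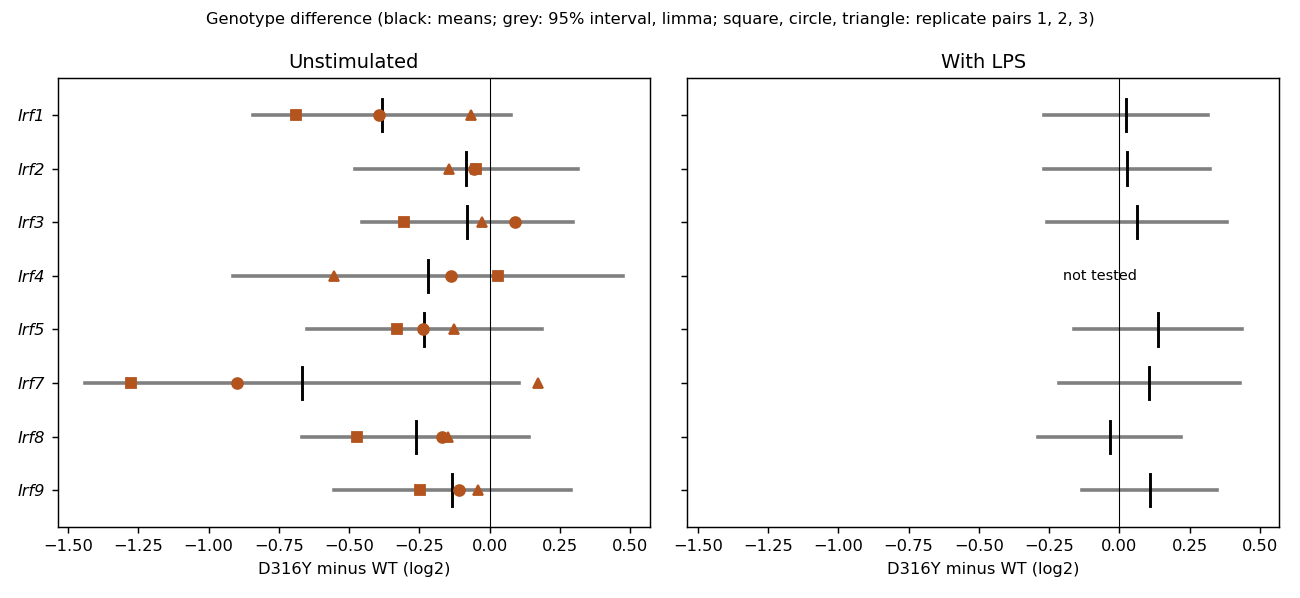
D316Y minus WT difference of each member (log2 scale, horizontal axis) without LPS (left) and with LPS (right), with black bars for differences of means, grey lines for 95% limma intervals and, on the left, squares, circles and triangles for replicate pairs 1, 2 and 3. All intervals include 0; on the left the means run from -0.67 (Irf7) to -0.08 (Irf2 and Irf3), on the right from -0.03 (Irf8) to 0.14 (Irf5), and Irf4 with LPS was not tested.

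With LPS the genotypes were close for the 7 members tested. Differences between D316Y and WT ran from -0.03 for Irf8 to 0.14 for Irf5, the median was 0.06, and limma adjusted p lay between 0.902 and 0.992. Of 11306 genes tested, 0.0177% passed as higher and 0.0265% as lower, 5 genes in all, and 0 members had an unadjusted p under 0.05, against 735 genes. For Irf7 the interval of the difference was -0.21 to 0.43 and for Irf1 -0.27 to 0.31. Among the 7 tested, Irf9 alone had groups that did not overlap, with D316Y higher by 0.11 (SE 0.11); 5.70% of genes tested did not overlap as higher and 6.79% as lower.

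Irf4 with LPS fell under the level needed for testing. Its 14 reads in D316Y and 2 in WT give a ratio of 8.02 after scaling, with a 95% counting interval of 1.84 to 72.7, and D316Y replicate 2 and WT replicate 1 had 2 reads each. When genes of all levels were tested, the limma adjusted p of its difference of 2.62 was 0.790. In the authors' deposited table it stood at 2.95 (limits 1.12 to 4.78), with a p-value of 0.00308 and an adjusted p-value of 0.224. The authors' deposited table without LPS gave Irf7 at -0.41 (p-value 0.0474, adjusted 0.298) and Irf1 at -0.26 (p-value 0.0383, adjusted 0.283), smaller in size than the differences fitted here. No member had an adjusted p-value under 0.05 in the authors' deposited tables, where 7 genes without and 10 genes with LPS did.

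The response to LPS was next compared between genotypes as the interaction, the LPS difference in D316Y minus that in WT. None of the 8 members passed in limma, as 0% of the 11918 genes tested did in either direction, and 1 member had an unadjusted p under 0.05, against 251 genes. The member was Irf4 (2.84, SE 0.99, unadjusted p 0.0133, adjusted p 0.999), whose value was 1.72 with 2 reads added. Irf7 stood at 0.78 (SE 0.39, unadjusted p 0.0693), Irf1 at 0.41 (SE 0.24), Irf5 at 0.37 (SE 0.21), Irf9 at 0.24, Irf8 at 0.23, Irf3 at 0.14 and Irf2 at 0.11. These 8 values are positive, with a median of 0.31 beside 0.01 over all genes, and they share the unstimulated libraries with the negative differences above. Without both unstimulated replicate 1 libraries the value of Irf7 was 0.47.

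Genes around the factors were counted in lists, whose counts with LPS stand beside 18.1% of all genes tested that passed as higher and 19.0% as lower in WT, and 19.4% and 19.0% in D316Y. The median change over all genes tested was -0.01 in WT and -0.03 in D316Y. Of 14 sensor and adaptor genes upstream, 4 rose in both genotypes, 2 fell in WT and 1 fell in D316Y (medians 0.11 and 0.16). Those that rose were Tlr3, the endosomal receptor for double-stranded RNA (1.10 in WT and 1.81 in D316Y), the cytosolic RNA sensors Ifih1 (1.03 and 1.59) and Ddx58 (0.96 and 1.41), and the adaptor Myd88 (0.82 and 1.07). Slc15a4, the lysosomal transporter that Toll-like receptor 7 and 9 signalling to IRF5 needs, fell by 0.89 and 0.70. Of 12 kinase and ubiquitin ligase genes 4 rose and 0 fell in WT, and 5 rose and 0 fell in D316Y (medians 0.21 and 0.34). Among them were Tank, the scaffold of TBK1 (1.86 and 2.08), the kinase Ikbke (1.05 and 1.37), Tbk1 itself (0.57 and 0.74) and the adaptor Azi2 (0.78 and 0.99). The ubiquitin ligase Traf3 stood at 0.33 in WT, where it did not pass, and rose by 0.61 in D316Y.

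Interferon receptor, JAK and STAT genes rose in 6 of 9 in WT and 7 of 9 in D316Y, and 1 fell in each (medians 0.67 and 0.99). Jak2, the kinase of the interferon gamma receptor, rose by 2.73 in WT and 2.94 in D316Y. Stat2, the partner of IRF9, rose by 1.10 and 1.89, Ifngr2 by 0.67 and 1.0001 and Ifnar2 by 0.67 and 0.99. Ifngr1, the ligand-binding chain of the gamma receptor, fell by 0.54 in each. Ifnb1, the 1 interferon gene listed of 20 sought, rose by 4.13 in WT and 4.41 in D316Y, from between 8 and 21 reads in the resting libraries to between 105 and 348 with LPS.

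Targets of interferon-stimulated response elements, the sites of ISGF3, IRF3 and IRF7, rose in 17 of 23 in WT (median 1.29) and in 23 of 23 in D316Y (median 2.12). Oasl1, an inhibitor of Irf7 translation, rose by 3.40 in WT and 4.53 in D316Y, and Zbp1, a sensor of Z-form nucleic acid, rose by 2.43 and 3.24. The 6 that did not pass in WT are Ifit2, Ifit3, Ifit3b, Mx2, Oas2 and Eif2ak2. Without LPS 0 of the 23 passed between genotypes and 23 of 23 were lower in D316Y, with a median of -0.67, as the Irf7 difference; with LPS the median was 0.08. An overlapping set of interferon-stimulated genes was known to be lower in these libraries when the list was drawn up, so its direction is not independent evidence. The interaction passed for 0 of the 23.

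**Figure D4:**
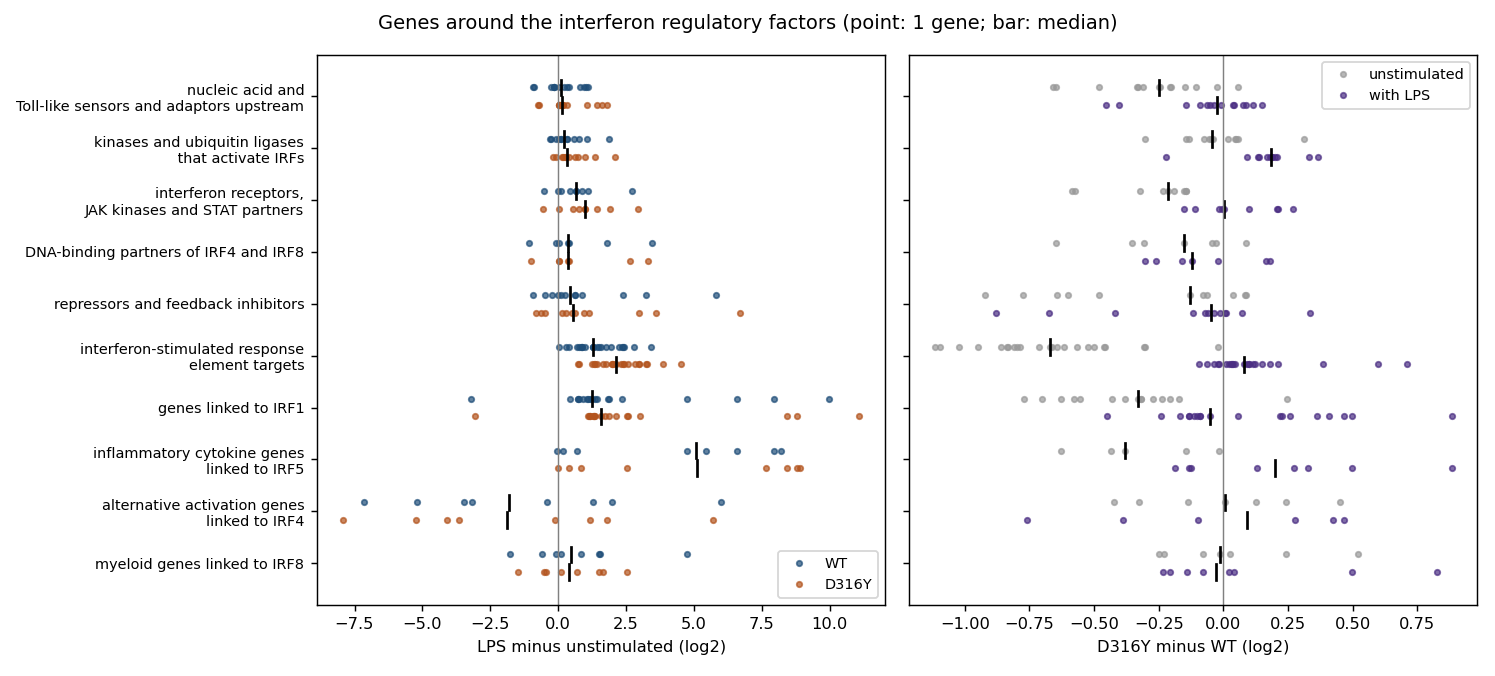
LPS minus unstimulated difference (left, log2 scale) in WT and D316Y, and D316Y minus WT difference (right, log2 scale) without and with LPS, for the tested genes of 10 lists, with 1 point per gene and a black bar for the list's median. The response element targets have medians of 1.29 and 2.12 on the left and of -0.67 without and 0.08 with LPS on the right.

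Genes linked to single factors moved unequally with LPS. These lists overlap, so their counts are not independent: Il12a, Il12b and Ccl5 are linked to both IRF1 and IRF5, and Il12b also to IRF8. Of 19 genes linked to IRF1 18 rose and 1 fell in each genotype (medians 1.24 and 1.57). Nos2, inducible nitric oxide synthase, rose by 9.97 in WT and 11.09 in D316Y from -4.29 and -5.15 log2 CPM, so that these values depend on the reads added, Psmb8 of the immunoproteasome rose by 1.43 and 1.57, and B2m, the light chain of MHC class I, by 1.24 and 1.37. The gene that fell was Ciita, the regulator of MHC class II (-3.20 and -3.08). Of 8 cytokine genes linked to IRF5 6 rose in each genotype (medians 5.09 and 5.10), while Irf5 itself fell in WT. Il1b rose by 8.20 and 8.91, Ccl5 by 7.94 and 8.43, and Tnf by 0.68 and 0.82. The medians lie between Il12b (4.74 and 2.54) and Il6 (5.43 and 7.66). At rest Il12b stood at -3.97 and -1.27 log2 CPM and Il6 at -4.75 and -6.70. The medians therefore depend on the reads added, and their closeness does not show like responses. Ccl3 and Ccl4 did not pass (-0.04 and 0.17 in WT).

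Of 8 alternative activation genes linked to IRF4 4 fell and 3 rose in each genotype (medians -1.80 and -1.88). The lectin receptor genes Mgl2 (-7.13 and -7.93), Clec10a (-5.19 and -5.25) and Mrc1 (-3.48 and -4.10) fell, with the values of Mgl2 depending on the reads added, and Fn1, fibronectin, fell by 3.19 and 3.64. Arg1, arginase 1, rose by 6.00 and 5.71, and the chemokine Ccl22 and the demethylase Kdm6b also rose (1.98 and 1.80, and 1.28 and 1.17). Among 7 DNA-binding partners of IRF4 and IRF8, 2 rose and 1 fell in each genotype (medians 0.37 and 0.37): Batf rose by 3.45 and 3.32 and Batf2 by 1.81 and 2.64, while Batf3 fell by 1.08 and 1.00. Spi1, which encodes PU.1, stood at 0.37 in each genotype without passing. Of 8 myeloid genes linked to IRF8 4 rose and 2 fell in each genotype (medians 0.46 and 0.41), with the oxidase subunit Cybb at 1.496 and 1.51 and Il18 at 1.54 and 1.64 among those that rose.

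Of 12 feedback genes 5 rose and 2 fell in WT, and 6 rose and 2 fell in D316Y (medians 0.43 and 0.55). Socs3, an inhibitor of cytokine receptor signalling, rose by 5.79 and 6.70, Usp18, which removes ISG15 and restrains the interferon receptor, by 2.38 and 2.98, and the ubiquitin editor Tnfaip3 by 0.89 and 1.14. Prdm1, the repressor BLIMP1, fell by 0.93 and 0.80, and Irf2bp2, a corepressor that binds IRF2, by 0.49 and 0.64. Between genotypes 0 genes of these lists passed in limma, without or with LPS.

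Likeness was measured as the root mean square difference between log2 CPM profiles over the 12 libraries, each gene centred on its own mean. The profile most like that of Irf7 was that of Enpp4 (0.18), followed by Ms4a6d (0.21) and Isg20 (0.22), an interferon-induced exonuclease. For Irf1 these were Rnf114 (0.07), Stard3 (0.07) and Ifnar2 (0.08), for Irf5 Tmem106c, St6galnac4 and Nudt9 (0.09 to 0.10), and for Irf8 Ly86, Hpcal1 and Stub1 (0.07 to 0.08). Irf9 came with Gpr65, Arpc4 and Sgta (0.07 to 0.08), Irf2 with Vps26a, Phf20 and Armc7 (0.06 to 0.07) and Irf3 with Taf6l, Slc50a1 and Rgs19 (each 0.09). For Irf4 the smallest values were 0.85 (Rhbdf1), 0.86 (Clec1a) and 0.86 (Tacc2). The measure grows with the range of a profile and with noise at low counts. Values of members that moved much and of nearly flat members are therefore not comparable. These values describe 12 libraries that share their groups and scaling.

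Exons of 5 members overlap those of another gene in the table, and whether reads were counted by strand is not given in the sources used here. Irf5 shares 411 of 2905 exon bases with Tnpo3, Irf1 135 of 3976 with Gm17334, Irf3 88 of 3442 with Bcl2l12 and Irf7 45 of 3776 with Phrf1, all on the opposite strand. Irf9 shares 123 of 5386 with Rnf31 on the same strand.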

How the data were processed

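The authors deposited tables of log2 CPM values for the 12 libraries (12493 entries; 12441 genes after repeated identifiers), with p-values of their own genotype comparisons, per the file headers. The submitters' processing notes name STAR 2.5.1a, featureCounts 1.4.6-p5 of Subread, limma, edgeR and bcl2fastq. Which genome build and annotation they used is not given in the sources used here. Positions and exon lengths come from GENCODE M21 (GRCm38), matched by identifier. Reads were recovered by undoing log2 of reads plus 0.5 over a size solved for each library. In every library 100% of the values under 200 reads then lay within 0.01 of a whole read. The size was not the sum of the reads. It lay above that sum in every unstimulated library and under it in every library with LPS. In replicate 3 the size was 41.2 M against 32.8 M reads in unstimulated WT, and 32.6 M against 35.3 M in LPS-treated D316Y. In WT replicate 1 the size was 55.8 M against 46.9 M reads without LPS, and 43.1 M against 47.2 M with LPS. Compared with scaling to the sum of reads, this raises every LPS change. The small LPS changes and the calls on them therefore depend on the scaling. They include the rise of Irf1 in WT and the lack of a called change in Irf2, Irf3, Irf8 and Irf9. Scaling to the sum of reads was not tested.

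Because the deposited values are log2 values, limma 3.58.1 in R 4.3.3 was used (data.table version 1.17.8; eBayes with trend and robust, two-sided, Benjamini-Hochberg over all genes tested, threshold 0.05), on genes whose mean reached 0 log2 CPM in a compared group. Genotypes were compared within 6 libraries, and the LPS responses and the interaction came from 1 fit of all 12. The fits were tested on simulated data. Irf4 between genotypes with LPS is given as read counts, because neither LPS group reached a mean of 0 log2 CPM. Its LPS changes and interaction were fitted with its low LPS libraries kept, those with 0 reads included.

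The 8 members and the gene lists were chosen with earlier results of these data known. The text names all members, up to 4 called genes per list with the smallest adjusted p (or 2 where none was called), and the 3 genes nearest in profile to each member. Ifngr1, Psmb8, B2m, Tnf, Ccl3, Ccl4, Fn1, Ccl22, Kdm6b, Irf2bp2 and the 6 response element targets that did not pass were named after their values were seen. Promoter windows are from RefSeq (all 8 members matched). To check pairing, each library's deviations from its group mean were correlated over genes. Same-numbered unstimulated WT and D316Y libraries gave 0.656, 0.630 and 0.200, and number 3 did not correlate best with its own number. The main fits therefore used no pairs. Differences within numbers are given as description, and a replicate block was run as an alternative. Alternatives were no filter, plain moderation, median centring, 2 reads added, voom weights, a replicate block, other libraries in the fit, and leaving out libraries.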

Additional observations from a re-analysis of the deposited data

How the results depend on the processing

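The count of members that passed stayed at 0 in both genotype comparisons and in the interaction, at 3 to 5 of 8 for LPS in WT and at 3 to 4 of 8 in D316Y, over all alternatives run. Of 580 member values under alternatives, 550 kept their direction and their side of the threshold, 6 lost and 4 gained a call (Irf1 in WT, and Irf9), and 20 changed sign, all of them small differences. Without both unstimulated replicate 1 libraries the sign changed for Irf3 between genotypes at rest (0.0318) and with LPS in WT (0.0657) and for Irf2 with LPS in D316Y (0.0210), and with median centring for Irf3 with LPS in WT (0.0477). Leaving out 1 library gave ranges across 0 between genotypes at rest for Irf2 (-0.196 to 0.0135), Irf9 (-0.224 to 0.0145) and Irf4 (-0.428 to 0.0137). With LPS these were -0.0614 to 0.130 for Irf1, -0.0925 to 0.124 for Irf2, -0.0435 to 0.148 for Irf3 and -0.0734 to 0.0343 for Irf8. For the LPS change they were -0.129 to 0.102 for Irf3 in WT and -0.163 to 0.0210 for Irf2 in D316Y, and for the interaction -0.00954 to 0.225 for Irf2. The causes were not tested. Depth limits Irf4 with LPS, which had at most 8 reads in a library. Scaling to the sum of reads was not among the alternatives.

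The replicate block changed 1 member call, Irf1 with LPS in WT (0.51, limma adjusted p 0.0522). It moved the count of all genes that passed at rest from 1 to 6 and with LPS from 5 to 6. Same-numbered libraries correlated at -0.140, 0.0859 and -0.0136 between the LPS groups, at 0.422, 0.231 and -0.0922 between WT without and with LPS, and at -0.189, -0.248 and -0.102 in D316Y, so these share only a number. In none of the 4 pairs of groups, the unstimulated genotypes included, did every library correlate best with its own number.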

Other observations

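Il12b, which encodes the shared subunit of interleukins 12 and 23 and is linked to IRF1, IRF5 and IRF8, was low without LPS and was not tested there. Its counts were 2, 2 and 4 reads in resting WT and 24, 32 and 12 in resting D316Y, which do not overlap, the opposite direction to the members. After LPS they were 111, 43 and 68 in WT and 72, 75 and 113 in D316Y, which overlap. Its interaction was -2.20 on the log2 scale (limma unadjusted p 0.00857, adjusted p 0.999) and did not pass. Il12b was named here after its values were seen.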
